A study of Mus musculus with 17 samples.

Results

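This account covers 10 genes for the main components of the basement membrane in mouse embryonic stem (ES) cells that carry a Forkhead transcription factor. They are the collagen IV chains Col4a1 and Col4a2, the laminin chains Lama1, Lama5, Lamb1 and Lamc1, the nidogens Nid1 and Nid2, the perlecan core protein gene Hspg2, and Sparc. The genes were taken by name from the 53588 gene symbols of the deposited transcript tables, with the values of all transcripts of a symbol added together. Polyadenylated RNA was sequenced from 5 lines made from MC1 ES cells (129S6/SvEvTac), 17 libraries in all. Each line holds a construct at the Rosa26 locus with the open reading frame of 1 factor, tagged with His6-FLAG at its C terminus, and a puromycin resistance gene, and doxycycline (Dox) represses the factor. The lines are named iFoxA1, iFoxC1, iFoxG1, iFoxL2 and iFoxP3 after their factor. Cells of the 24 h groups had lost Dox through 3 washes in buffer at intervals of 3 h and had then grown in a differentiation medium with 10% fetal bovine serum. Cells of the 0 h groups were in gelatin-coated dishes in ES medium with 15% serum, 1000 U/ml leukemia inhibitory factor, puromycin and 0.2 µg/ml Dox. iFoxA1 had 3 libraries at 24 h and 2 at 0 h, and every other line had 2 at 24 h and 1 at 0 h. No line without a factor was among the samples, so within a line the effects of the factor, of Dox removal and of the new medium cannot be told apart. Each line stands for a single construct. Whether replicates came from separate cultures is not stated, and p-values therefore refer to the scatter among these libraries, which may be technical.

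A basement membrane is a thin sheet of extracellular matrix under epithelia. Laminins, each a trimer of an alpha, a beta and a gamma chain, polymerise at the cell surface, and collagen IV forms a second, covalently cross-linked network. Nidogens and perlecan connect the networks to each other. In the early mouse embryo, primitive endoderm and its parietal derivative are strong producers of laminin and collagen IV, and the sheet they lay down is needed for the epiblast to polarise.

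In the GENCODE M21 annotation of the GRCm38 (mm10) build, Col4a1 (ENSMUSG00000031502.11) lies on the minus strand of chromosome 8 from 11198423 to 11312826. Col4a2 (ENSMUSG00000031503.13) lies beside it on the plus strand, from 11312805 to 11449287, so the genes are transcribed away from each other. They are the only members that neighbour each other, and their windows around the start site are shown for that reason. RefSeq (GRCm38.p6) places their start sites 21 bases apart, and the windows of 300 bases share 78 bases, read from opposite strands. Each window runs from 250 bases before to 50 bases after the start, and capitals mark matches to CCAAT, the core bound by NF-Y, and GGGCGG, the core of a GC box, on either strand.
Col4a1 (chr8:11312777-11313076, minus strand): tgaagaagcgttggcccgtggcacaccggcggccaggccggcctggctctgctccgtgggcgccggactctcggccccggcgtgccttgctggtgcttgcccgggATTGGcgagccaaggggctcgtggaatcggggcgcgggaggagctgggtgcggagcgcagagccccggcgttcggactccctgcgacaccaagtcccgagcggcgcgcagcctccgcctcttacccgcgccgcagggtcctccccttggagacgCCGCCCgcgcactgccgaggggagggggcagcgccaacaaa
Col4a2 (chr8:11312555-11312854, plus strand): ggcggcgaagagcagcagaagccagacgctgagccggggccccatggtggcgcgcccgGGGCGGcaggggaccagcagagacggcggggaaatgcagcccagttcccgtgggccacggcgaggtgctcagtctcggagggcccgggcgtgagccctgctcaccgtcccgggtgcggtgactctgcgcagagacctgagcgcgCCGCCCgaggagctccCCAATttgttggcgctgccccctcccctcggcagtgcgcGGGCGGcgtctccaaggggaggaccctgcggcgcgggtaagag
CCAAT was present in 37.4% and GGGCGG in 35.7% of all 32851 RefSeq windows of this length. The forkhead motif TGTTTAC (3.65% of windows), its variant TGTTTGC (5.07%) and the GATA motif AGATAA (11.2%) were not in these 2 windows on either strand. RefSeq windows were at hand for 7 of the 10 genes (also Lama5, Lamb1, Nid1, Hspg2 and Sparc), and these 3 motifs were in none of the 7.

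The other genes lie apart on the same build. Lama1 (ENSMUSG00000032796.8) is on the plus strand of chromosome 17 from 67697259 to 67822647, and Lama5 (ENSMUSG00000015647.9) on the minus strand of chromosome 2 from 180176373 to 180225859. Lamb1 (ENSMUSG00000002900.16) is on the plus strand of chromosome 12 from 31265234 to 31329644, and Lamc1 (ENSMUSG00000026478.14) on the minus strand of chromosome 1 from 153218922 to 153332786. Nid1 (ENSMUSG00000005397.8) is on the plus strand of chromosome 13 from 13437551 to 13512269, and Nid2 (ENSMUSG00000021806.4) on the plus strand of chromosome 14 from 19751265 to 19811787. Hspg2 (ENSMUSG00000028763.17) is on the plus strand of chromosome 4 from 137468769 to 137570630, and Sparc (ENSMUSG00000018593.13) on the minus strand of chromosome 11 from 55394500 to 55423183.

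Library totals lay between 17.7 and 37.2 M estimated counts, and between 15568 and 16913 genes reached 10 counts. The 5 libraries above 30 M counts (iFoxA1 replicate 3 and replicate 2 of each other line, all at 24 h) stood apart from the 12 others, with a chi-square per degree of freedom of 101 to 263 against the other replicates of their group. The gene Mir6236 had 31760 to 57880 TPM in these 5 libraries and 742 to 2544 TPM in the 12 others. Within the 12, the replicate pairs of iFoxA1 gave 3.80 at 24 h and 3.14 at 0 h, above 1, so no library was a copy of another. The labels name no batch. Summed over 8 ES cell markers, the level in TPM, transcript abundance scaled for length and depth, lay between 3328 and 5468 in the 24 h libraries and between 5173 and 6350 in the 0 h libraries. Foxa1 had 131, 137 and 21.8 TPM in replicates 1 to 3 of iFoxA1 at 24 h, against at most 1.59 TPM at 0 h. Foxl2 had 78.1 and 2.85 TPM in replicates 1 and 2 of iFoxL2 at 24 h, against 0.485 TPM at 0 h. Foxc1 (48.1 to 73.7 TPM) and Foxp3 (144 to 184 TPM) were also high at 24 h in their own lines. iFoxA1 replicate 3 and iFoxL2 replicate 2, which had the lowest levels of their own factor, are treated below as libraries in doubt.

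Levels of different genes are compared in TPM of full-length protein-coding transcripts (at least 4000 bases, and all protein-coding transcripts for Sparc, whose RNA is shorter). Sparc had the highest mean of the 10 genes in every line at both times, and its libraries ran from 93.9 to 144 TPM at 24 h and from 77.5 to 189.9 TPM at 0 h. Nid2 and Lamc1 had the next means at 0 h in every line, with their order differing between lines. In iFoxL2 replicate 2 at 24 h Nid2, at 161 TPM, was above Sparc. In iFoxA1 at 24 h Col4a1 came second, with 76.1, 74.0 and 50.5 TPM, a range that overlapped that of Nid2 (47.2 to 86.7 TPM) and Lamc1 (48.6 to 66.2 TPM). In the other 4 lines at 24 h the collagen IV chains stood near the bottom, Col4a1 with 5.26 to 8.72 TPM and Col4a2 with 2.04 to 3.94 TPM, and Lama1 was lowest in each, with 0.314 to 1.92 TPM. Changes between groups are given in CPM, counts scaled to a common library size and summed over all transcripts of a gene. Shorter and non-coding transcripts took part of the summed TPM of several genes. Full-length transcripts of Lama5 held 29.1% to 38.8% of its summed TPM in the 5 deep libraries and 45.4% to 84.2% in the 12 others.

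**Figure D1:**
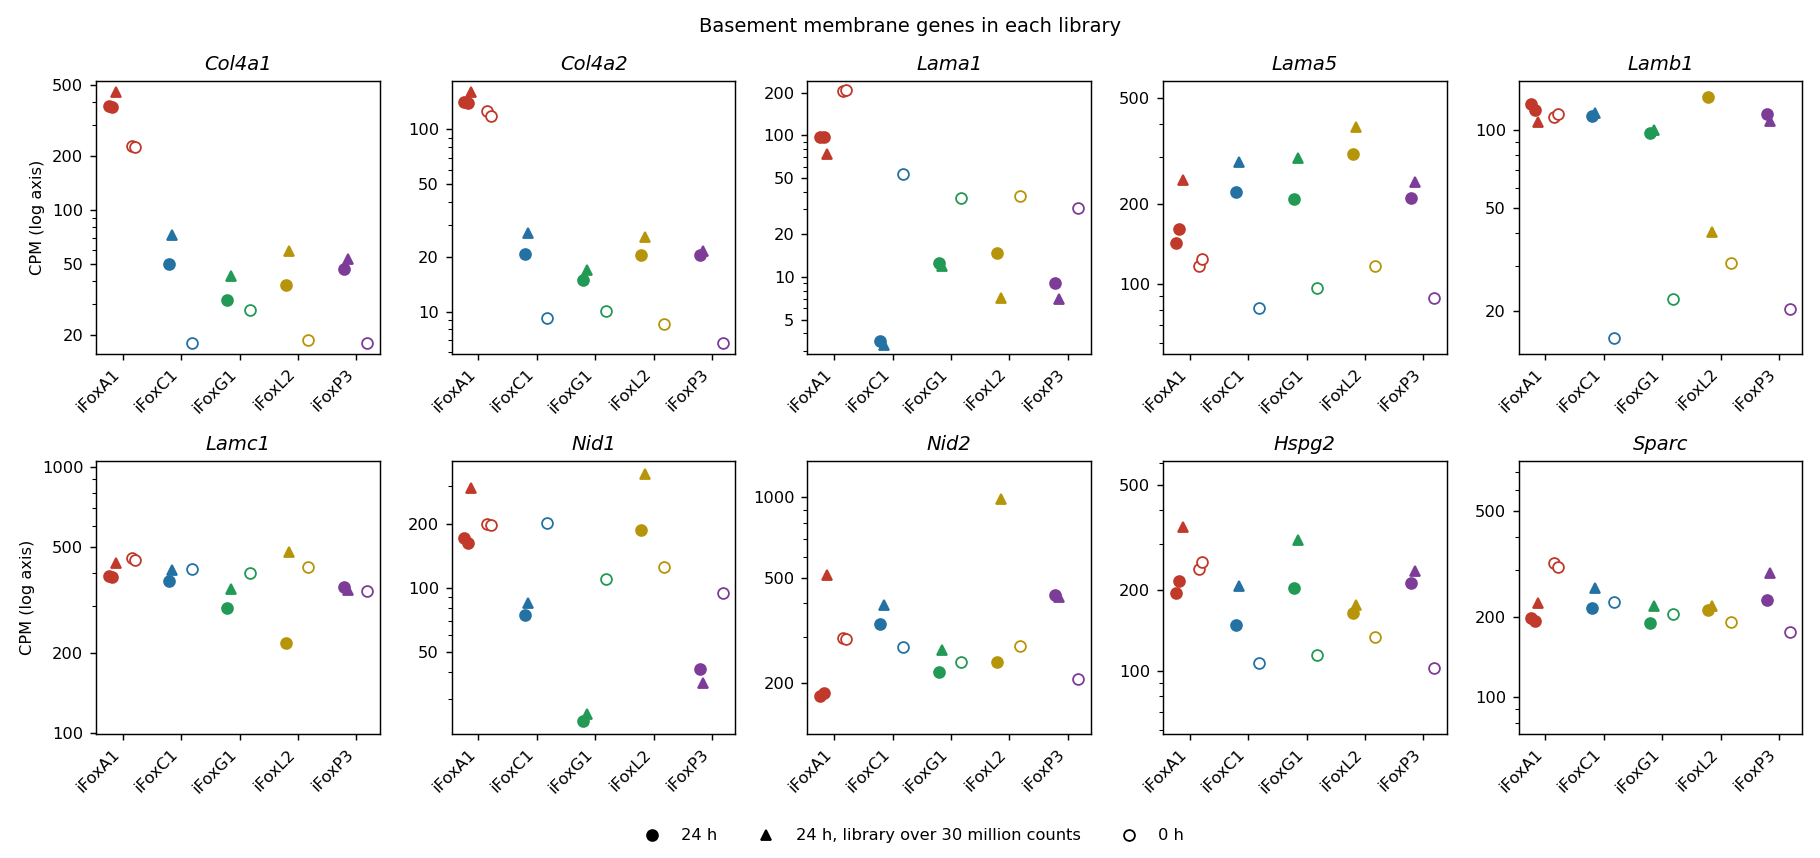
Level of each gene in every library, in CPM on a log axis, by line (filled, 24 h; open, 0 h; triangles, the 5 libraries over 30 M counts). Col4a1, Col4a2 and Lama5 were higher at 24 h than at 0 h in each of the 5 lines, Lama1 was lower in each, and iFoxA1 held Col4a1, Col4a2 and Lama1 above the other lines at both times. The share of all genes that separate in this way is not given.

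Both collagen IV chains rose over the 5 lines on average, and their level was far higher in iFoxA1 than elsewhere. In iFoxA1, Col4a1, the α1 chain of collagen IV, had 381, 379 and 457.5 CPM at 24 h, against 227.5 and 225 CPM at 0 h. In iFoxC1 it had 50.1 and 72.6 CPM at 24 h and 18.1 CPM at 0 h, and in iFoxG1 31.3 and 42.6 CPM at 24 h and 27.5 CPM at 0 h. In iFoxL2 it had 38.2 and 59.2 CPM at 24 h and 18.8 CPM at 0 h, and in iFoxP3 47.0 and 53.3 CPM at 24 h and 18.2 CPM at 0 h. Every 24 h library was above its line's 0 h libraries, and the lowest iFoxA1 library, at 0 h, was above the highest library of any other line. Averaged over the 5 lines with equal weight, Col4a1 rose by 1.17 ± 0.14 on the log2 scale (SE; edgeR's quasi-likelihood test, Benjamini-Hochberg adjusted p = 0.000223). Col4a2, the partner chain, had 142, 140.2 and 160.2 CPM at 24 h in iFoxA1, against 127 and 118 CPM at 0 h. In the other lines Col4a2 had 14.9 to 27.0 CPM at 24 h (8 libraries) and 6.75 to 10.1 CPM at 0 h (4 libraries), with no overlap between the times. Its average change was 1.07 ± 0.09 (edgeR, adjusted p = 3.3e-05). In full-length TPM Col4a2 overlapped between the times in iFoxA1. It had 29.9, 28.6 and 18.5 TPM in replicates 1 to 3 at 24 h, against 25.3 and 23.5 TPM at 0 h. Within iFoxA1 alone the change of Col4a2 did not pass the threshold.

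The laminin alpha chains moved in opposite directions. Lama1, the α1 chain of the main laminin of the early embryo, had 98.01, 97.0 and 74.5 CPM at 24 h in iFoxA1, against 206 and 211 CPM at 0 h. In iFoxC1 it had 3.52 and 3.30 CPM at 24 h, against 53.6 CPM at 0 h. In the remaining lines it had 12.6 and 11.9 CPM at 24 h and 35.97 CPM at 0 h (iFoxG1), 14.8 and 7.15 CPM at 24 h and 37.2 CPM at 0 h (iFoxL2), and 9.09 and 7.02 CPM at 24 h and 30.6 CPM at 0 h (iFoxP3). All 24 h libraries were below all 0 h libraries within each line, and the average change was -2.09 ± 0.14 (edgeR, adjusted p = 1.24e-05). Lama5, the α5 chain found in most epithelial basement membranes of later stages, had 143, 161 and 246 CPM at 24 h in iFoxA1, against 116 and 124 CPM at 0 h. In the other lines Lama5 ran from 208 to 388 CPM at 24 h (median 264.5, 8 libraries), against 81.5 to 117 CPM at 0 h (median 92.7, 4 libraries). The times did not overlap in any line, and Lama5 rose by 1.31 ± 0.15 on average (edgeR, adjusted p = 0.000229).

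Lamb1, the β1 chain, was near 100 CPM in most libraries at 24 h and near that level in iFoxA1 before Dox was removed. In iFoxA1 it had 126, 119 and 107 CPM at 24 h, against 113 and 115.5 CPM at 0 h, and the times overlapped. The other lines had 15.8 CPM (iFoxC1), 22.4 CPM (iFoxG1), 30.8 CPM (iFoxL2) and 20.4 CPM (iFoxP3) at 0 h. Their 24 h libraries had 113 and 116 CPM in iFoxC1, 97.6 and 100.1 CPM in iFoxG1, 135 and 40.4 CPM in iFoxL2, and 115 and 108 CPM in iFoxP3. All of these 24 h values were above the line's 0 h value, and the value of 40.4 CPM in iFoxL2 replicate 2, a library in doubt, was the lowest. Lamb1 rose by 1.80 ± 0.23 on average (edgeR, adjusted p = 0.000356). Lamc1, the γ1 chain that nearly all laminins share, ran from 217 to 479 CPM at 24 h (median 371, 11 libraries), against 342 to 454 CPM at 0 h (median 417, 6 libraries). Both extremes at 24 h were iFoxL2 libraries, replicates 1 and 2. Its average change of -0.16 ± 0.15 did not pass the threshold (edgeR, adjusted p = 0.438), and without iFoxL2 replicate 2 at 24 h it was -0.30 with an adjusted p of 0.00536.

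The nidogens link laminin to collagen IV. Nid1 had 172, 163 and 293.5 CPM at 24 h in iFoxA1, against 199 and 198 CPM at 0 h. It had 74.3 and 84.9 CPM at 24 h and 202.5 CPM at 0 h in iFoxC1, and 23.6 and 25.4 CPM at 24 h and 110.2 CPM at 0 h in iFoxG1. It had 186.5 and 342 CPM at 24 h and 125 CPM at 0 h in iFoxL2, and 41.3 and 35.7 CPM at 24 h and 94.1 CPM at 0 h in iFoxP3. Nid1 was thus lower at 24 h in every library of 3 lines, higher in both libraries of iFoxL2, and overlapping in iFoxA1. The average change of -0.73 ± 0.16 passed the threshold (edgeR, adjusted p = 0.00699), and without the 0 h library of iFoxG1 it was -0.38 with an adjusted p of 0.142. Nid2 ran from 179 to 989 CPM at 24 h (median 334.5), against 208 to 298 CPM at 0 h (median 275.5). The highest values, 989 and 513 CPM, were those of the libraries in doubt, iFoxL2 replicate 2 and iFoxA1 replicate 3, whose fellow replicates had 240.2 CPM in iFoxL2 and 179 and 184 CPM in iFoxA1. The average change of Nid2 was 0.52 ± 0.33 and did not pass (edgeR, adjusted p = 0.250).

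Hspg2 encodes perlecan, a large heparan sulfate proteoglycan that binds growth factors in the membrane. In iFoxA1 it had 196, 218 and 345 CPM at 24 h, against 242 and 256 CPM at 0 h, and the times overlapped. In the other lines it had 148 to 309 CPM at 24 h, against 102 to 133.5 CPM at 0 h, and the 24 h libraries were above the 0 h library in each of the 4. Its average rise was 0.68 ± 0.16 (edgeR, adjusted p = 0.00757). Sparc encodes a collagen-binding glycoprotein. It had 198, 192 and 225 CPM at 24 h in iFoxA1, all below the 317 and 308 CPM at 0 h. In the other lines Sparc ran from 189 to 293 CPM at 24 h, against 175.5 to 226 CPM at 0 h. Its average change was 0.04 ± 0.08 (edgeR, adjusted p = 0.756).

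In the average change 5 of the 10 genes rose (Col4a1, Col4a2, Lama5, Lamb1 and Hspg2), where 21.7% of all 19796 genes tested rose, and 2 fell (Lama1 and Nid1), where 16.1% of all genes fell (37.8% in either direction). The median change of the 10 was 0.60 on the log2 scale, beside 0.04 for all genes tested. In bulk RNA a different number of cells that express a gene and a different amount of RNA per cell cannot be told apart. No deep library is at 0 h, so the time and the depth set are partly confounded. Within the 12 other libraries the average changes were 0.96 for Col4a1, 0.96 for Col4a2, 1.10 for Lama5, 1.94 for Lamb1, 0.48 for Hspg2, -1.92 for Lama1 and -0.91 for Nid1, all past the threshold in edgeR (adjusted p at most 2.87e-06). The spread in that fit rests on the 2 replicate pairs of iFoxA1. For this and the other alternative fits the share of all genes that passed is not given, here or below. Counts of members in them are therefore not read as a result about these genes. Without the 2 libraries in doubt 8 members passed in the average change.

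Within single lines 18 changes of members passed the threshold, and Lama1 was among them in all 5 lines. In iFoxC1 5 of 10 passed, where 9.73% of all genes did. These were Lama1 (-3.97 ± 0.35, adjusted p = 0.000468), Lamb1 (2.86 ± 0.58), Col4a1 (1.76 ± 0.33), Lama5 (1.64 ± 0.37) and Col4a2 (1.37 ± 0.21). In iFoxL2 4 of 10 passed, beside 4.23% of all genes, namely Lama1 (-1.77 ± 0.34), Lama5 (1.57 ± 0.37), Col4a2 (1.43 ± 0.22) and Col4a1 (1.38 ± 0.33). In iFoxP3 4 of 10 passed, beside 6.05% of all genes, namely Lamb1 (2.46 ± 0.56), Lama1 (-1.93 ± 0.34), Col4a2 (1.64 ± 0.22) and Col4a1 (1.47 ± 0.33). In iFoxA1 3 of 10 passed, beside 10.8% of all genes, namely Lama1 (-1.21 ± 0.25), Col4a1 (0.84 ± 0.23) and Sparc (-0.61 ± 0.14). In iFoxG1 2 of 10 passed, beside 5.64% of all genes, namely Nid1 (-2.17 ± 0.38) and Lama1 (-1.55 ± 0.34). Adjusted p-values of these 18 ran from 0.000468 to 0.0487 (edgeR).

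Of these 18 calls, 4 held in edgeR in the 16 runs that left out 1 library and still gave the change, namely Col4a2 in iFoxC1, iFoxL2 and iFoxP3 and Lama1 in iFoxC1. The only 0 h library of these lines, on which the change rests, could not be left out. In iFoxC1 the other 3 calls were lost without replicate 2 at 24 h, where Col4a1 had 1.42, Lama5 1.39 and Lamb1 2.79 (edgeR, adjusted p up to 0.121). In iFoxA1 no call was left without either 0 h library, with Lama1 at -1.23 and -1.197 and adjusted p up to 0.107. In iFoxG1 none was left without either 24 h library, with Nid1 at -2.12 and -2.22 and adjusted p up to 0.0822. In iFoxP3 Col4a1 and Lamb1 were also lost without either 24 h library (1.55 and 1.36 for Col4a1, 2.41 and 2.49 for Lamb1), as was Lama1 (-2.13 and -1.76), with adjusted p up to 0.117. In iFoxL2 Col4a1 and Lama5 were lost without replicate 2 at 24 h, at 1.03 and 1.4 (adjusted p up to 0.0762). In iFoxA1 Col4a1 was also lost without any of its 24 h libraries (0.75 to 0.89, adjusted p up to 0.0894), and Sparc without its replicate 1 or 2 at 24 h (-0.59 and -0.56, adjusted p up to 0.0811). Libraries of other lines enter such a call through the shared estimate of spread. Leaving out either 0 h library of iFoxA1 ended the calls for Lama1, Col4a1 and Lama5 in iFoxL2 (-1.77, 1.38 and 1.57), for Lama1 in iFoxG1 (-1.56) and for Col4a1 and Lamb1 in iFoxP3 (1.46 and 2.45), with adjusted p of 0.0540 to 0.0919. Leaving out 24 h libraries of iFoxA1 (replicate 1 or 2), iFoxC1, iFoxG1 or iFoxP3, or the 0 h library of iFoxP3, ended the call for Col4a1 in iFoxL2 (1.38 to 1.39). The calls for Lama5 in iFoxL2, Lamb1 in iFoxP3, Lama1 in iFoxG1, Col4a1 in iFoxA1 and Col4a1 in iFoxP3 were likewise lost in some of these runs, with adjusted p up to 0.0770. Other changes passed when a library was left out. Without iFoxL2 replicate 2 at 24 h, Lamb1 in iFoxL2 was 2.14 (adjusted p = 0.000344), Lamc1 in iFoxL2 -0.95 (0.0142) and Lamb1 in iFoxG1 2.15 (0.000151). No change that had passed turned its direction in any of these runs.

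**Figure D2:**
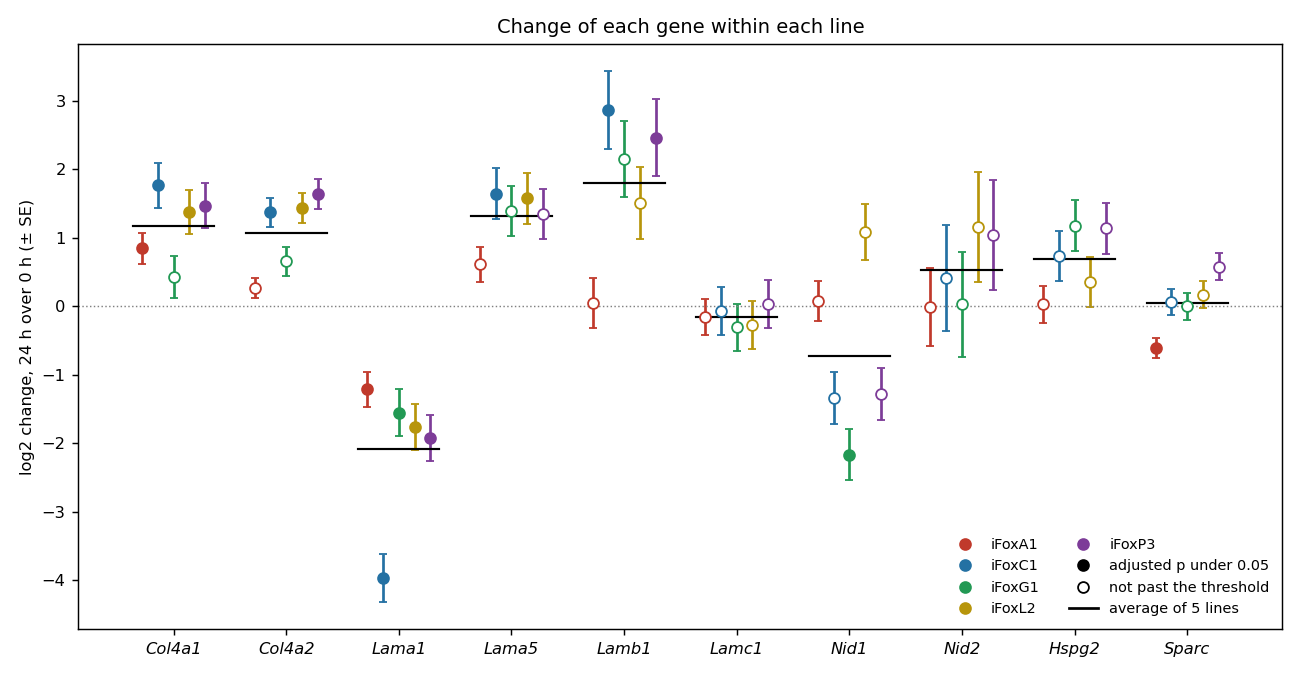
Change of each gene from 0 h to 24 h within each line, as log2 fold change ± SE from edgeR (filled, adjusted p under 0.05; black bars, average of the 5 lines). Lama1 lay below 0 in all 5 lines, from -1.21 in iFoxA1 to -3.97 in iFoxC1, while Lamb1 lay at 0.04 in iFoxA1 and between 1.51 and 2.86 in the other 4.

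Whether the changes differed among the 5 lines was tested with 1 F test per gene. None of the 10 members passed after adjustment in edgeR, where 1% of all genes passed, and 5 had an unadjusted p under 0.05 (Col4a2, Lama1, Lamb1, Nid1 and Sparc). DESeq2's likelihood ratio test called 5 members and limma on log2 TPM called 0. With the deep library set as a term, edgeR called Col4a2, Lama1, Nid1, Sparc and Col4a1, with adjusted p of 0.00914, 0.0113, 0.0136, 0.014 and 0.0269 in that order. No share of all genes is given beside the counts of these alternative fits. When each line was set against the mean of the other 4, 3 members differed in iFoxA1 (3.09% of all genes) and 1 in iFoxC1 (1.08% of all genes). None differed in edgeR in iFoxG1 (0.111% of all genes), iFoxL2 (0.00505%) or iFoxP3 (0%), where 3, 1 and 2 members had an unadjusted p under 0.05; other tools were not run on this contrast. In iFoxA1 the change was lower than elsewhere for Lamb1 by a log2 difference of -2.20 ± 0.44 (edgeR, adjusted p = 0.0340), for Col4a2 by -1.005 ± 0.18 (adjusted p = 0.0222) and for Sparc by -0.81 ± 0.17 (adjusted p = 0.0402). In iFoxC1 the fall of Lama1 exceeded that of the other lines by -2.36 ± 0.38 (adjusted p = 0.0302). Without either 0 h library of iFoxA1 these 4 calls were lost in edgeR, with values of -2.22 and -2.18 for Lamb1, -0.95 and -1.05 for Col4a2, -0.79 and -0.83 for Sparc and -2.36 in both cases for Lama1, and adjusted p of 0.0836 to 0.221. Over the runs that left out 1 library and still gave the difference, these calls were lost in 13 of 17 runs for Lamb1, 7 of 17 for Col4a2, 10 of 17 for Sparc and 9 of 16 for Lama1, and the differences ran from -2.41 to -1.92, -1.18 to -0.89, -0.88 to -0.69 and -2.52 to -2.21 in that order. Within the 12 libraries that are not deep they were -2.27, -0.92, -0.75 and -2.56. The spread in that fit rests on the replicate pairs of iFoxA1 alone, so passing there is not read as a result.

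At 24 h, iFoxA1 cells held more collagen IV, Lama1 and Nid1 RNA than the mean of the other lines. For Nid1 this did not hold against each line, since iFoxL2 had a mean of 264 CPM and iFoxA1 209 CPM. Col4a1 was higher by 3.06 ± 0.16 on the log2 scale (edgeR, adjusted p = 5.75e-06), Lama1 by 3.53 ± 0.18 (5.75e-06), Col4a2 by 2.83 ± 0.10 (6.74e-07) and Nid1 by 1.65 ± 0.20 (0.000748). These 4 of 10 compare with 8.88% of all genes that were higher and 15.1% that differed in either direction. None of the 10 was lower past the threshold in edgeR. Lama5 came nearest, at -0.54 ± 0.19 (edgeR, adjusted p = 0.0966) with an unadjusted p under 0.05, and DESeq2, which called 5 members, called it lower (-0.52, adjusted p = 0.036), as did edgeR with the deep library set as a term (-0.49, adjusted p = 0.00415). Without iFoxA1 replicate 3 at 24 h it was -0.81 with an adjusted p of 0.0138. Lamb1 (0.20 ± 0.27) and Lamc1 (0.20 ± 0.19) passed without 1 iFoxL2 library each, at 0.48 without replicate 1 (adjusted p = 0.0022) and 0.39 without replicate 2 (0.00983). The calls for Col4a1, Col4a2, Lama1 and Nid1 held without each library in turn, with log2 differences from 1.32 for Nid1 to 3.68 for Lama1. Within the 12 libraries that are not deep they were 3.23 for Col4a1, 3.49 for Lama1, 2.92 for Col4a2 and 1.48 for Nid1.

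Before Dox was removed, iFoxA1 already held more collagen IV and Lama1 RNA than the other lines, and also more Lamb1 and Sparc RNA. At 0 h Col4a2 was higher than in the other lines by 3.84 ± 0.14 (edgeR, adjusted p = 4.21e-06), Col4a1 by 3.48 ± 0.21 (0.00017), Lama1 by 2.44 ± 0.24 (0.00233), Lamb1 by 2.39 ± 0.34 (0.0131) and Sparc by 0.65 ± 0.13 (0.0481). These 5 of 10 compare with 1.2% of all genes that were higher and 1.59% in either direction. Each other line has 1 library at 0 h, which was assumed to vary like the replicated groups. Without either 0 h library of iFoxA1 the calls for Lamb1 (2.41 and 2.38) and Sparc (0.64 and 0.67) were lost, with adjusted p of 0.128 to 0.402, and the call for Sparc was also lost in 12 of the other runs, with values of 0.59 to 0.72. Hspg2 had a difference of 1.13 ± 0.24 (edgeR, adjusted p = 0.0571), and it passed without iFoxA1 replicate 3 at 24 h (1.13, adjusted p = 0.0169). Hspg2 also passed without either iFoxL2 library at 24 h, and its difference ran from 1.08 to 1.205 over all runs with 1 library left out. All 0 h libraries are outside the deep set. Foxa1 itself had 0.970 and 1.59 TPM in iFoxA1 at 0 h, and at most 0.29 TPM in any library of the other lines. Whether this low level has a part in the 0 h differences was not tested.

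Markers of primitive and parietal endoderm stood beside this difference. Summed over 16 markers, iFoxA1 libraries had 52.5 to 133.5 TPM at 24 h and 86.8 to 89.3 TPM at 0 h, and libraries of the other lines had 9.03 to 29.8 TPM at 24 h and 5.85 to 7.45 TPM at 0 h. At 24 h 13 of the 16 were higher in iFoxA1 in edgeR, beside 8.88% of all genes, and at 0 h 10 of 16 were, beside 1.2% of all genes. The defining factors Gata4 (3.50 to 4.94 TPM at 24 h), Gata6 (4.64 to 16.0 TPM) and Sox17 (1.22 to 7.20 TPM) were all detected in iFoxA1, and at 0 h they had 5.98 and 6.61 TPM (Gata4), 6.97 and 8.40 TPM (Gata6) and 9.06 and 7.40 TPM (Sox17). In iFoxA1 replicate 3 at 24 h all 3 were lower than in its fellow replicates. In the other lines Gata4 was at most 1.51 TPM, Gata6 at most 2.75 TPM and Sox17 at most 0.495 TPM. Dab2, from the same list, was not confined to iFoxA1. At 24 h it had 12.4 and 11.35 TPM in iFoxC1 and 10.5 and 0.605 TPM in iFoxL2. In iFoxA1 it had 31.5, 31.5 and 7.26 TPM at 24 h, and 11.1 and 11.6 TPM at 0 h. Fibroblast markers summed to 15.2 to 21.02 TPM at 24 h and 9.90 to 10.9 TPM at 0 h in iFoxA1 over 12 genes, and to 6.50 to 16.4 TPM at 24 h and 4.43 to 4.97 TPM at 0 h in the other lines. In iFoxA1 3 of the 12 (Col5a1, Thy1 and Twist1) had a mean of at least 1 TPM at each time, and Col1a2, Lum, Dcn and Postn were under 0.1 TPM on average. The part of endoderm-like or fibroblast-like cells in the levels of iFoxA1 was not tested.

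**Figure D3:**
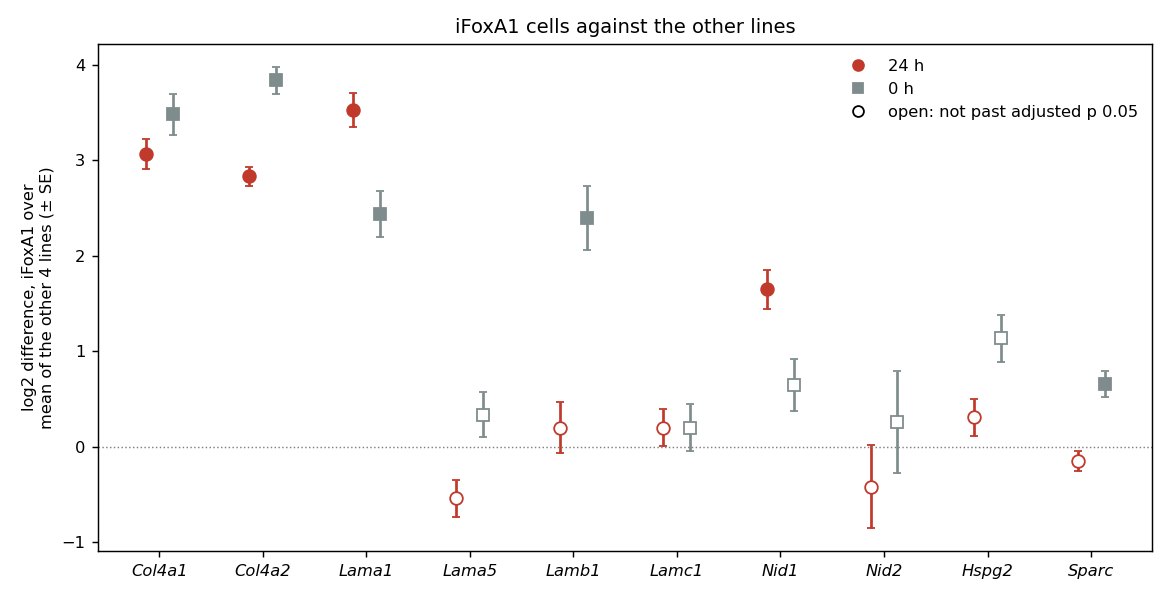
Difference of each gene between iFoxA1 and the mean of the other 4 lines, as log2 ± SE from edgeR, at 24 h (circles) and 0 h (squares); filled symbols passed an adjusted p of 0.05. Col4a1 and Col4a2 were 2.83 to 3.84 above the other lines at both times, and Lamb1 was 2.39 above them at 0 h and 0.20 at 24 h.

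Each of the other lines was also set against the mean of the 4 remaining lines at 24 h, a mean that takes in iFoxA1. In this comparison iFoxG1 was lower for Nid1 by -2.22 ± 0.30 (edgeR, adjusted p = 0.00454), for Col4a1 by -1.26 ± 0.21 (0.0149) and for Col4a2 by -1.18 ± 0.14 (0.0023), 3 of 10 beside 2.74% of all genes. iFoxL2 was higher for Nid1 by 2.07 ± 0.22 (edgeR, adjusted p = 0.00407), 1 of 10 beside 1.64% of all genes. iFoxC1 was lower for Lama1 by -2.37 ± 0.27 (edgeR, adjusted p = 0.00171), 1 of 10 beside 3.69% of all genes. In iFoxP3 no member passed in edgeR, beside 0.561% of all genes, while 5 had an unadjusted p under 0.05, DESeq2 called 4 and limma on log2 TPM called 0. Set beside the lines other than iFoxA1 alone, iFoxG1 had a mean of 36.9 CPM for Col4a1 at 24 h, against 48.7 to 61.4 CPM, 15.9 CPM for Col4a2, against 21.02 to 23.9 CPM, and 24.5 CPM for Nid1, against 38.5 to 264 CPM. iFoxC1 had a mean of 3.41 CPM for Lama1, against 8.06 to 12.2 CPM. Differences with iFoxA1 left out were not tested. In the comparisons with all lines, without replicate 1 of iFoxG1 at 24 h its 3 calls were lost (-2.17, -1.05 and -1.09, adjusted p up to 0.244), without its replicate 2 Nid1 (-2.27) and Col4a1 (-1.50) were, and without replicate 2 of iFoxC1 Lama1 had -2.36 with an adjusted p of 0.0537. Within the 12 libraries that are not deep the values were -2.07, -1.30 and -1.17 for iFoxG1, 1.68 for iFoxL2 and -2.55 for iFoxC1.

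Because the chains assemble in trimers, ratios of their RNA were compared per length, from summed TPM, between the 11 libraries at 24 h and the 6 at 0 h. The test was an exact two-sided permutation test over all 12376 splits, with Benjamini-Hochberg adjustment over the 8 ratios, and the smallest p it allows is 8.08e-05. It takes no account of libraries that share a line. Summed TPM of Lama5 includes shorter transcripts, which took a larger part in the deep libraries, all at 24 h. The log2 differences with Lama5 below therefore do not measure its full-length RNA alone. The median of Lama1 to Lama5 was 0.0357 at 24 h and 0.475 at 0 h in summed TPM, and 0.0562 and 0.627 in full-length transcripts. The ratio of Lama1 to Lama5 was lower at 24 h by -3.65 on the log2 scale (exact p = 0.00388, adjusted 0.0103). In full-length transcripts it lay between 0.421 and 0.798 at 24 h in iFoxA1, against 2.05 and 2.06 at 0 h, and between 0.0163 and 0.0746 at 24 h in the other lines, against 0.391 to 0.791 at 0 h. Lama1 RNA exceeded Lama5 RNA only in the 2 iFoxA1 libraries at 0 h among the 17. In the 12 libraries without the deep set the log2 difference was -2.70, with an adjusted exact p of 0.0808.

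In summed TPM the ratio of Lama5 to Lamc1 was higher at 24 h by 1.68 on the log2 scale (exact p = 0.000566, adjusted 0.00452). That of Lamb1 to Lamc1 was higher by 1.60 (exact p = 0.00137, adjusted 0.00549). The median of Lama5 to Lamc1 was 0.693 at 24 h and 0.216 at 0 h in summed TPM, and 0.387 and 0.160 in full-length transcripts. In full-length transcripts Lama5 to Lamc1 lay between 0.243 and 0.861 at 24 h, against 0.126 to 0.177 at 0 h, with no overlap between the times. Lamb1 to Lamc1 was 0.112 to 0.807 at 24 h in the lines other than iFoxA1, against 0.0501 to 0.0957 at 0 h, and in iFoxA1 it lay between 0.329 and 0.421 at 24 h, against 0.322 and 0.336 at 0 h. Both extremes at 24 h were iFoxL2 libraries. In full-length TPM, Lamc1 was above Lama1, Lama5 and Lamb1 in each of the 17 libraries. The ratio of Col4a1 to Col4a2 in full-length transcripts kept within 1.77 to 2.74 at 24 h and 1.71 to 2.71 at 0 h, and its log2 difference in summed TPM was 0.34 (exact p = 0.110, adjusted 0.147). Without the 0 h library of iFoxG1 it was 0.48, with an adjusted exact p of 0.0498. Lama1 to Lamc1 had a log2 difference of -1.97 (adjusted exact p = 0.0619), and it passed when any 1 of the 24 h libraries of iFoxA1 (-2.24 to -2.19) or the 0 h library of iFoxG1 (-2.16) was left out, with adjusted exact p of 0.028 to 0.0498. The remaining ratios did not pass, with log2 differences of -1.11 for Nid1 to Nid2 (0.117), 0.66 for summed collagen IV to summed laminin (0.427) and -0.39 for Nid1 to Lamc1 (0.497). Summed collagen IV to laminin in full-length transcripts separated the lines, at 0.795 to 0.862 (24 h) and 0.478 to 0.507 (0 h) in iFoxA1 and 0.0910 to 0.136 (24 h) and 0.0531 to 0.0800 (0 h) elsewhere.

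**Figure D4:**
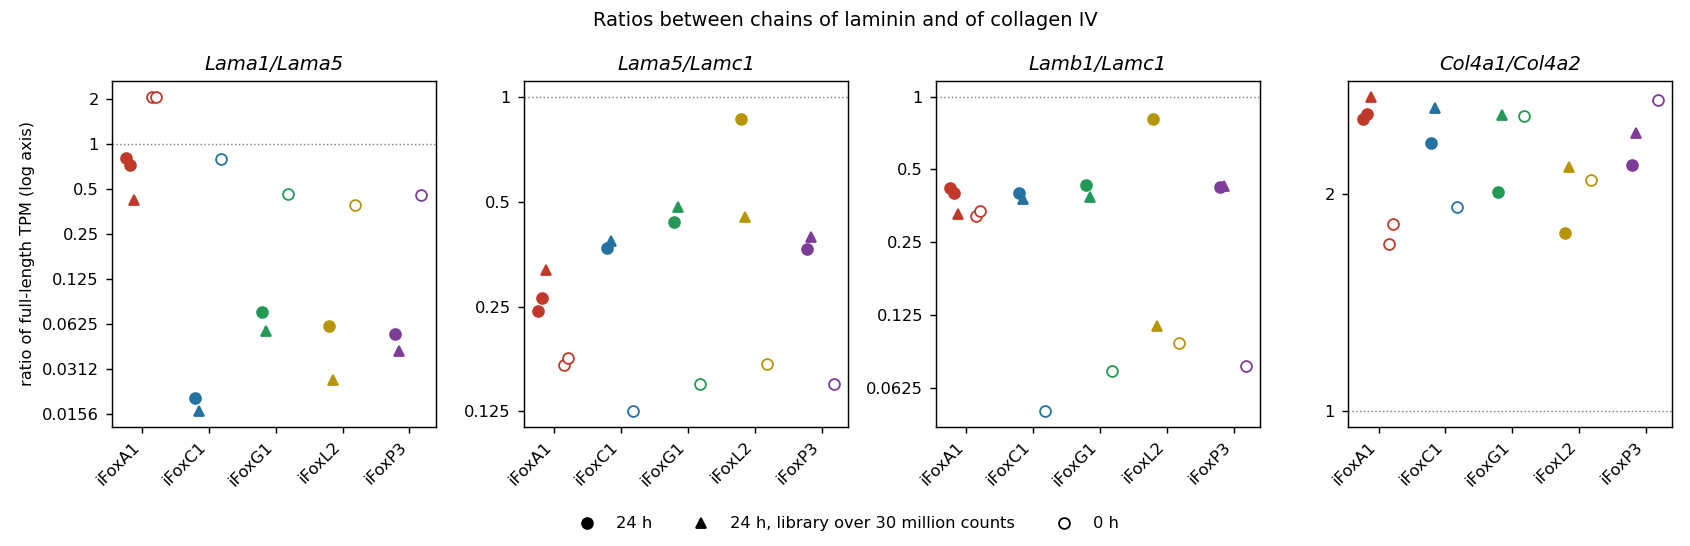
Ratio of full-length protein-coding TPM between chains in each library, on a log axis (filled, 24 h; open, 0 h; triangles, the 5 libraries over 30 M counts; dotted line, equal TPM). Lama1 to Lama5 fell below 0.08 at 24 h in all lines but iFoxA1, and Lama5 to Lamc1 was above every 0 h library in all 11 libraries at 24 h.

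Across the 17 libraries Col4a1 and Col4a2 had a Pearson r of 0.991 in log2 CPM, the highest of the 45 pairs of members, a value that includes the gap between iFoxA1 and the other lines. The next pairs were Lamb1 with Hspg2 (0.787) and Col4a2 with Hspg2 (0.690), and Lama1 with Lama5 had -0.643. Among 10864 genes whose mean reached 5 CPM, Pomt2, an O-mannosyltransferase, was nearest to Col4a1 (r = 0.973) and to Col4a2 (0.974). Cubn, an endocytic receptor of extraembryonic endoderm, was second for Col4a1 (0.955) and Col4a2 (0.960), with means of 81.0 CPM at 24 h and 56.6 CPM at 0 h in iFoxA1, against 2.50 CPM at 24 h and 0.549 CPM at 0 h in the other lines. Nearest to Lama1 was Camkk2 (0.970), to Lama5 Ddb1 (0.975), to Lamb1 Incenp (0.953), to Nid1 the cathepsin gene Ctsl (0.935) and to Nid2 Kat7 (0.942). Nearest to Lamc1 was Gm43305 (0.915), to Hspg2 Adar (0.903) and to Sparc Rrm2 (0.846). These values share libraries, depth set and lines and are given as a description.

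Of 10 further genes for laminin and collagen IV chains 6 were tested, and in the average change 0 rose and 2 fell in edgeR (beside 21.7% and 16.1% of all genes), with a median of 0.28. At an unadjusted p under 0.05 in edgeR 0 rose as well; other tools were not summarised for this list. Those that fell were Lama3 (-1.35 ± 0.21, adjusted p = 0.001), with 2.16 to 14.4 CPM at 24 h and 12.5 to 24.8 CPM at 0 h, and Lamb2 (-0.61 ± 0.10, adjusted p = 0.00143), with 15.3 to 33.9 CPM at 24 h and 23.7 to 38.2 CPM at 0 h. Lama3 encodes a chain of the laminin of skin basement membrane, and Lamb2 the β2 chain found in kidney and at the neuromuscular junction. With the lines pooled, both genes overlapped between the times, while within each line the mean of both was lower at 24 h than at 0 h.

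Among 20 other glycoproteins of basement membrane and matrix, 19 were tested, 5 rose and 1 fell (21.7% of all genes rose and 16.1% fell), a share of rises near that of all genes. Col18a1, whose C-terminal fragment is endostatin, rose by 1.42 ± 0.14 (edgeR, adjusted p = 8.71e-05), with 219 to 577 CPM at 24 h and 104 to 147 CPM at 0 h. Npnt (nephronectin, an integrin ligand) rose by 1.82 ± 0.35 and Frem2 by 0.94 ± 0.17, both with their highest mean at 24 h in iFoxA1 (18.2 and 17.6 CPM). Smoc2, a relative of Sparc, rose by 3.18 ± 0.65 from a very low level, with at most 3.08 CPM at 24 h and 0.144 CPM at 0 h.

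Of 23 genes for processing and cross-linking of collagen IV, 7 rose and 4 fell, near the 21.7% and 16.1% of all genes. Pxdn, the peroxidase that forms the sulfilimine cross-links of collagen IV, rose by 3.16 ± 0.11 (edgeR, adjusted p = 3.94e-07), with 18.3 to 82.8 CPM at 24 h and 3.72 to 7.36 CPM at 0 h. Its change differed among lines (adjusted p = 0.0111), with a mean of 20.3 CPM at 24 h in iFoxA1 and 79.2 CPM in iFoxG1. P3h4 (1.17 ± 0.13) and Loxl3, a lysyl oxidase (1.77 ± 0.37), also rose, and Ppib, a prolyl isomerase of the endoplasmic reticulum, fell by 0.40 ± 0.08.

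Of 20 receptors for laminin and collagen IV, 19 were tested, 10 rose and 1 fell, beside 21.7% and 16.1% of all genes. Itga3, the integrin α3 subunit of a receptor for laminins with the α5 chain, rose by 1.91 ± 0.21, with 89.4 to 195 CPM at 24 h and 34.0 to 55.0 CPM at 0 h. The collagen receptor tyrosine kinases moved in opposite directions, Ddr1 by 2.34 ± 0.20 (35.2 to 96.2 CPM at 24 h, 10.0 to 15.1 CPM at 0 h) and Ddr2 by -3.34 ± 0.36 (0.0916 to 2.07 CPM at 24 h, 2.28 to 10.5 CPM at 0 h). Sdc4, a syndecan, rose by 1.499 ± 0.11, and the adjusted p-values of these 4 were at most 0.00014 (edgeR). The times did not overlap for these 4, which were named for their small adjusted p in this same change. The share of all genes without overlap is not given.

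Of 22 matrix proteases and inhibitors 11 rose and 2 fell, beside 21.7% and 16.1% of all genes. Mmp9, a gelatinase that cleaves collagen IV, rose by 3.11 ± 0.35 (2.19 to 11.3 CPM at 24 h, 0.462 to 0.909 CPM at 0 h). Plau, the urokinase gene, rose by 3.79 ± 0.67, Timp3 by 1.13 ± 0.15 and Mmp15 by 0.80 ± 0.12, with adjusted p of at most 0.00209 (edgeR). The changes of Timp3 and Tll1 differed among lines (edgeR, adjusted p = 0.0324 and 0.0352). Timp3 had means of 6.18 CPM at 24 h and 9.17 CPM at 0 h in iFoxA1, against 12.8 CPM at 24 h and 2.31 CPM at 0 h in iFoxG1, and Tll1 had 12.4 CPM at 24 h and 0.530 CPM at 0 h in iFoxA1.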

How the data were processed

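The authors quantified the reads as estimated counts and TPM per transcript with Salmon 1.4.0, with the mouse genome build given as mm10 and DESeq2 1.30.1 also named, all per the submitters' processing notes. Per the labels' protocols, strand-specific libraries were made from polyadenylated RNA. The deposited tables hold 137271 transcripts a library, of which 137225 matched GENCODE M21, and the 46 others held at most 0.0133% of the counts of a library. The deposited estimated counts were summed per gene symbol and rounded, and the deposited TPM were summed likewise. Of 53588 genes, 19796 passed edgeR's filterByExpr (minimum count 10), all 10 members among them. edgeR 4.0.16 (R 4.3.3) fitted 10 groups of line and time over 17 libraries with TMM scaling and a quasi-likelihood test with 7 residual degrees of freedom, and Benjamini-Hochberg adjustment ran over all genes tested, with a threshold of 0.05. The fit assumes that the groups of 1 library vary like the replicated ones. CPM were computed with TMM-scaled library sizes. Chain ratios were tested in SciPy 1.17.1 by exact permutation.

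Libraries were grouped by line and time from their labels. Alternatives were other scaling factors, no filter, a term for the deep library set, the 12 libraries outside it, a replicate block, DESeq2 1.42.0, limma 3.58.1 on log2(TPM + 1), protein-coding transcripts only, and each library left out. The model was run on simulated data for the average change only. The simulation gave all genes the same spread and the deep library set no effect beyond depth. It therefore does not speak to the tests within or between lines. Some genes are not reported here, and the gene lists and their counts leave them out. The members, the gene lists and the tests were chosen with earlier results of these data known. All members are named; from each other list up to 4 genes with the smallest adjusted p in the average change and up to 2 in the difference among lines are named. Binomial intervals were not used. Totals of 17.7 to 37.2 M counts a library set the precision of low values.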

Additional observations from a re-analysis of the deposited data

Results flagged for a closer look

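In 4 cases the change of a member in 1 line differed from the mean change of the other 4 lines, by edgeR's quasi-likelihood test of that difference. In iFoxA1 the difference was -1.005 for Col4a2, -2.20 for Lamb1 and -0.81 for Sparc on the log2 scale, and in iFoxC1 it was -2.36 for Lama1. For Lamb1 the iFoxA1 libraries had 107 to 126 CPM at 24 h and 113 to 115.5 CPM at 0 h, against 40.4 to 135 CPM at 24 h and 15.8 to 30.8 CPM at 0 h in the other lines, so the 0 h levels were further apart than the 24 h levels. For Lama1 the iFoxC1 libraries had 3.30 and 3.52 CPM at 24 h. The F test over all 5 changes passed for none of these genes after adjustment in edgeR, and 5 members had an unadjusted p under 0.05. DESeq2, or edgeR with the deep library set as a term, called 5 members each.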

How the results depend on the processing

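The average change called 7 members in the fit as reported and 6 to 10 under every alternative and every library left out. Counts within lines moved more, and the cause was not tested. The share of all genes that passed is not given for the alternatives, so their counts of members have no background beside them. For the difference among the 5 changes, 0 members passed as reported, 2 with upper-quartile factors, without a filter or with protein-coding transcripts only, 5 with DESeq2 or a term for the deep library set, 3 with a replicate block, 10 in the 12 libraries outside the deep set and 7 without iFoxA1 replicate 3 and iFoxL2 replicate 2 at 24 h (0 to 4 with 1 library left out). In iFoxA1 3 changes passed, against 1 without a filter and 10 in the 12 libraries (0 to 3). In iFoxC1 5 passed, against 9 in the 12 libraries and 2 with limma (2 to 6). In iFoxG1 2 passed, against 6 with the library-set term, 7 in the 12 libraries, 5 with the replicate block or DESeq2, 1 with limma, 4 with protein-coding transcripts and 6 without those 2 libraries (0 to 4). In iFoxL2 4 passed, against 2 without a filter, 10 in the 12 libraries and 0 with limma (1 to 5). In iFoxP3 4 passed, against 8 with the term or DESeq2, 9 in the 12 libraries or without those 2 libraries, 7 with the block and 1 with limma (1 to 7).

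For levels at 24 h, iFoxA1 differed in 4 members as reported, 10 in the 12 libraries and 7 without the 2 libraries. For iFoxC1 the count was 1 as reported, 3 with the term or without the 2 libraries, 6 in the 12 libraries, 2 with DESeq2 and 0 with limma (0 to 3). For iFoxG1 it was 3, and 7 in the 12 libraries (0 to 3). For iFoxL2 it was 1, 2 with upper-quartile factors, 4 with the term, the block or without the 2 libraries, 8 in the 12 libraries and 3 with DESeq2 (1 to 4). For iFoxP3 it was 0, 2 with upper-quartile factors or the block, 1 without a filter or with protein-coding transcripts, 4 with the term, DESeq2 or without the 2 libraries, and 8 in the 12 libraries (0 to 3). At 0 h iFoxA1 differed in 5, 10 in the 12 libraries and 3 with limma (3 to 6). The fit on 12 libraries takes its spread from the replicate pairs of iFoxA1. These had a chi-square per degree of freedom of 3.8 (24 h) and 3.14 (0 h), against 101 to 263 for all other pairs. High counts in that fit are therefore not read as a result about the members.

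Directions turned only for changes that had not passed. The average change of Sparc was 0.04, and -0.064 with the library-set term, -0.065 in the 12 libraries, -0.030 with the block and -0.0095 with protein-coding transcripts (-0.10 to 0.069 with 1 library left out). In iFoxA1, Nid1 was -0.095 with the term, -0.23 in the 12 libraries, -0.25 with the block, -0.015 with limma and -0.26 without the 2 libraries (-0.25 to 0.23). There Hspg2 was -0.033 with upper-quartile factors, -0.16 with the term, -0.25 in the 12 libraries, -0.27 with the block or without the 2 libraries, -0.098 with limma and -0.017 with protein-coding transcripts (-0.27 to 0.18). There Lamb1 was -0.24 with limma (-0.0077 to 0.11) and Nid2 0.0085 without a filter (-0.71 to 0.24). In iFoxC1, Sparc was -0.048 with the term, -0.11 in the 12 libraries, -0.0055 with the block, -0.025 with limma and -0.037 with protein-coding transcripts (-0.11 to 0.18). In iFoxG1, Nid2 was -0.38 with the term, -0.11 in the 12 libraries, -0.18 with the block and -0.029 with protein-coding transcripts (-0.12 to 0.16), and Sparc 0.0054 with upper-quartile factors, 0.013 without the 2 libraries, 0.050 without a filter and 0.11 with limma (-0.11 to 0.10). In iFoxL2, Nid2 was -0.18 in the 12 libraries and -0.20 without the 2 libraries (-0.20 to 1.84), and Lamc1 ran from -0.95 to 0.19. In iFoxP3, Lamc1 was -0.12 with the term, -0.080 with the block and -0.020 with protein-coding transcripts.

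Of the chain ratios, Lama1 to Lama5 was -2.70 in the 12 libraries (adjusted exact p = 0.0808). Without the 5 iFoxA1 libraries Lama1 to Lamc1 (-2.18), Nid1 to Nid2 (-1.57) and collagen IV to laminin (0.81) passed. With 1 library left out Col4a1 to Col4a2 ran from 0.24 to 0.48, passing only without the 0 h library of iFoxG1, and Lama1 to Lamc1 from -2.24 to -1.67. Full-length transcripts or CPM changed no call.

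Whether replicate numbers pair the samples could not be settled. Only iFoxA1 has more than 1 library at 0 h, and in groups of 2 libraries the deviations from the mean mirror each other. Deviations from group means correlated at 0.00265 to 0.0414 between times for the same number, and from -0.566 to 0.757 between lines at 24 h, where number 2 is a deep library in every line but iFoxA1. The replicate block is therefore given only here. The set without iFoxA1 replicate 3 and iFoxL2 replicate 2, the protein-coding and full-length sums and the ratios without iFoxA1 were chosen after seeing the data. Depth limits changes of genes near 1 CPM, and the single 0 h library of 4 lines limits every change within them.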

Other observations

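Some genes outside the 10 followed a member across the 17 libraries closely in log2 CPM, given here as Pearson r after the nearest gene of each. Sh3pxd2b, a podosome adaptor, was the third for Col4a1 (0.935) and Nbas the third for Col4a2 (0.917). Scfd1 (0.916) and Smc6 (0.910) followed Lama1, Usp22 (0.974) and Rapgef1 (0.969) followed Lama5, and Repin1 and Pitpnm2 (0.923 each) followed Lamb1. For Lamc1 the third was Esrrb (0.858), a nuclear receptor of the ES cell state, after Gm42427 (0.879). Kirrel (0.887) and Dpm1 (0.884) followed Nid1, Tox4 (0.925) and Sh2b3 (0.922) followed Nid2, and Plaur (0.886), the urokinase receptor gene, and Golga3 (0.884) followed Hspg2. Sparc had the weakest neighbours, with Ptges3-ps at 0.797 and Tmem104 at 0.757.

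Smooth muscle markers (6 genes) summed to 10.4 to 17.6 TPM at 24 h and 14.7 to 16.5 TPM at 0 h in iFoxA1. In the other lines they summed to 13.0 to 194.9 TPM at 24 h and 7.37 to 43.7 TPM at 0 h. Endothelial markers (8 genes) summed to at most 9.88 TPM in any library.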
